A study of Mus musculus with 17 samples.

Results

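Cux1, Cux2, Onecut1, Onecut2 and Satb1 are the genes of the Cut family described here, and all probes of these 5 genes on the array were taken by gene name or RefSeq identifier, with the older names Cutl1 and Cutl2 read as Cux1 and Cux2. They have 12 of the 41174 probes: 4 for Cux1, 1 for Cux2, 2 for Onecut1, 3 for Onecut2 and 2 for Satb1. The study profiled epithelial tumor cells, isolated by laser-capture microdissection, from 17 mammary tumors of FVB mice on 2-color Agilent arrays, each tumor against amplified Stratagene universal mouse reference RNA. RNA from 9 tumors came from mice with a p75 CUX1 transgene and RNA from 8 tumors from mice with a p110 CUX1 transgene, both driven by the promoter of the mouse mammary tumor virus (MMTV), which is active in mammary epithelium. Each group thus carries a CUX1 transgene, no tumor or gland without one was analysed here, and ages were not given in the sources used here. The p75 tumors were 4 adenosquamous carcinomas, 3 solid carcinomas, 1 adenomyoepithelioma and 1 adenocarcinoma, and the p110 tumors were 6 solid carcinomas, 1 adenomyoepithelioma and 1 adenoma, each named by its transgene and mouse number. By the clusters that the study drew from the expression of 19 Wnt genes on the same arrays, 5 tumors were high-Wnt, 5 medium-Wnt and 7 low-Wnt. No Cut-family gene was among those 19.

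Cut-family proteins bind DNA through Cut repeats, alone or together with a homeodomain, and many of them repress transcription by competing for sites or recruiting deacetylases. CUX1 is made as a long protein that proteolysis shortens to p110, while p75 arises from a transcript begun at an intronic start. Both short isoforms keep the homeodomain and bind DNA stably. The same locus also gives the CASP transcript, which shares upstream exons with Cux1, lacks the Cut repeats and homeodomain and encodes a Golgi membrane protein. CUX2 is the close relative of CUX1 known from upper-layer cortical neurons, the Onecut factors are known from liver, pancreas and neurons, and SATB1 is a chromatin organizer known from thymocytes.

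The 4 Cux1 probes lie on the minus strand of chromosome 5 (build mm7) in the order below, and they read different transcripts. The sequences are shown because only the first lies in the part that codes for the homeodomain, which p75 and p110 share, while the last 2 belong to variant 2, which is the CASP transcript. Both coding probes are given whole, and the other probes by their first 30 bases, all 5′ to 3′ in lower case.
A_52_P680751 (variant 1, homeodomain coding part, chr5:135250752-135250811): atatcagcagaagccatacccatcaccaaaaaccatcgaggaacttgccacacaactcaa
A_51_P375237 (Cux homeodomain protein mRNA, chr5:135245091-135245151): gtattttataatctgctttttaacctctaa
A_52_P567658 (variant 2, coding part, chr5:135225353-135225412): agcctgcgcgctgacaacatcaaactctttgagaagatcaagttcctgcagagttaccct
A_52_P442676 (variant 2, chr5:135219591-135219650): tccatgatttgagttctgcttgcttcttta
The homeodomain probe starts 31161 bases from the last variant 2 probe. Whether any of them pairs with RNA of the transgenes was not given in the sources used here, so no probe serves as a check of the transgene.

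A probe was called measured in a tumor when the scanner software had marked the tumor color as well above background on each of its arrays. Over the tumors, the measured share ranged from 18.3% to 61.9% of the 41174 probes, with p75-129 the highest and p110-98, p110-225 and p110-374 (18.9%, 22.2% and 18.3%) the lowest. The epithelial markers Krt8 and Krt18 were measured in 17 tumors, but p110-121, labelled as epithelial cells of a solid carcinoma, had log2 ratios of −4.32 and −4.91 for them, whereas the other 16 ranged from −0.09 to 3.12. In p110-121 the leukocyte gene Ptprc (0.79) and the macrophage genes Cd68 (1.92) and Adgre1 (3.06) had their highest ratios of the 17. All p110 arrays were scanned in one year and all p75 arrays in the next, so transgene and scan year cannot be told apart.

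Among the Cut-family probes, 1 of 12 was measured in all 17 tumors. This was Cux1 A_52_P442676, and over the whole array 12.6% of probes were measured in 17 tumors. Cux1 A_52_P567658, Cux2 A_51_P180463 and Onecut2 A_52_P1067724 were measured in none, as were 28.0% of all probes. The other 8 probes were measured in 1 to 6 tumors each.

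**Figure D1:**
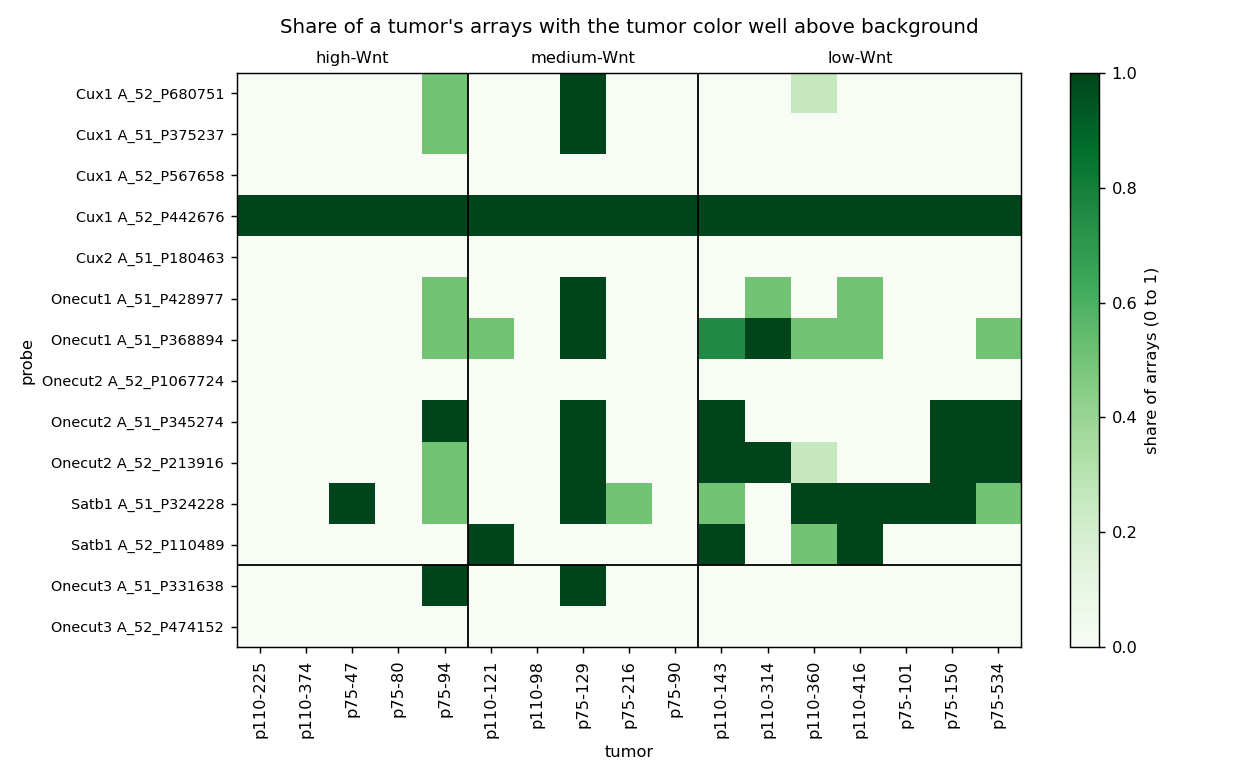
Each cell gives the share of a tumor's arrays on which a probe's tumor color was well above background, for 12 Cut-family probes and, under the line, 2 probes of Onecut3. Tumors (horizontal axis) are ordered by Wnt cluster. Cux1 A_52_P442676 fills its row over 38 arrays, and p75-129 is the tumor with most probes measured.

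RNA of the Cux1 locus was measured in every tumor by A_52_P442676, a probe of variant 2, the CASP transcript without the homeodomain, and its mean ratio over the arrays of a tumor was below 0 in 17 of 17. Its log2 ratio of tumor over reference was −0.33 in p75-94, −0.47 in p75-47, then −0.48 in p110-416, −0.77 in p110-374, −0.87 in p110-225, −1.04 in p75-129, −1.29 in p75-80, −1.31 in p75-534, followed by −1.33 in p110-98, −1.35 in p110-121, −1.60 in p75-90, −1.64 in p110-314, −1.70 in p110-360, −1.75 in p75-101, −1.85 in p75-150, −2.06 in p110-143 and −2.12 in p75-216. The 3 highest tumors were thus both p75 and p110, and so were the 3 lowest. The array with the tumor in Cy3 gave the higher ratio in 17 of 17 tumors, by a median of 0.71, and this dye difference cancels in the mean of the dye-swapped arrays. Each pair of neighbours in this order lay closer together than that, and of the 5 highest tumors by the mean the same 5 were highest in Cy3 alone and in Cy5 alone. On the array with the tumor in Cy3 alone, p75-94 (0.15) and p110-416 (0.09) stood above the reference.

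The homeodomain probe A_52_P680751 was measured in p75-129 alone, where its log2 ratio was 0.00, and its ratios ran from −0.11 to 0.10 over the 17 tumors. The reference color, too, was measured in p75-129 and in no other tumor. Ratios near 0 for such a probe set background against background and give no level. A_51_P375237 likewise was measured only in p75-129 (−0.20), with its reference measured only there. A_52_P567658, the coding probe of variant 2, was not well above background on any of the 38 arrays in the tumor color and on 7 in the reference color, with ratios from −0.55 to 0.18, while A_52_P442676, of the same transcript, was on 38 in both colors.

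**Figure D2:**
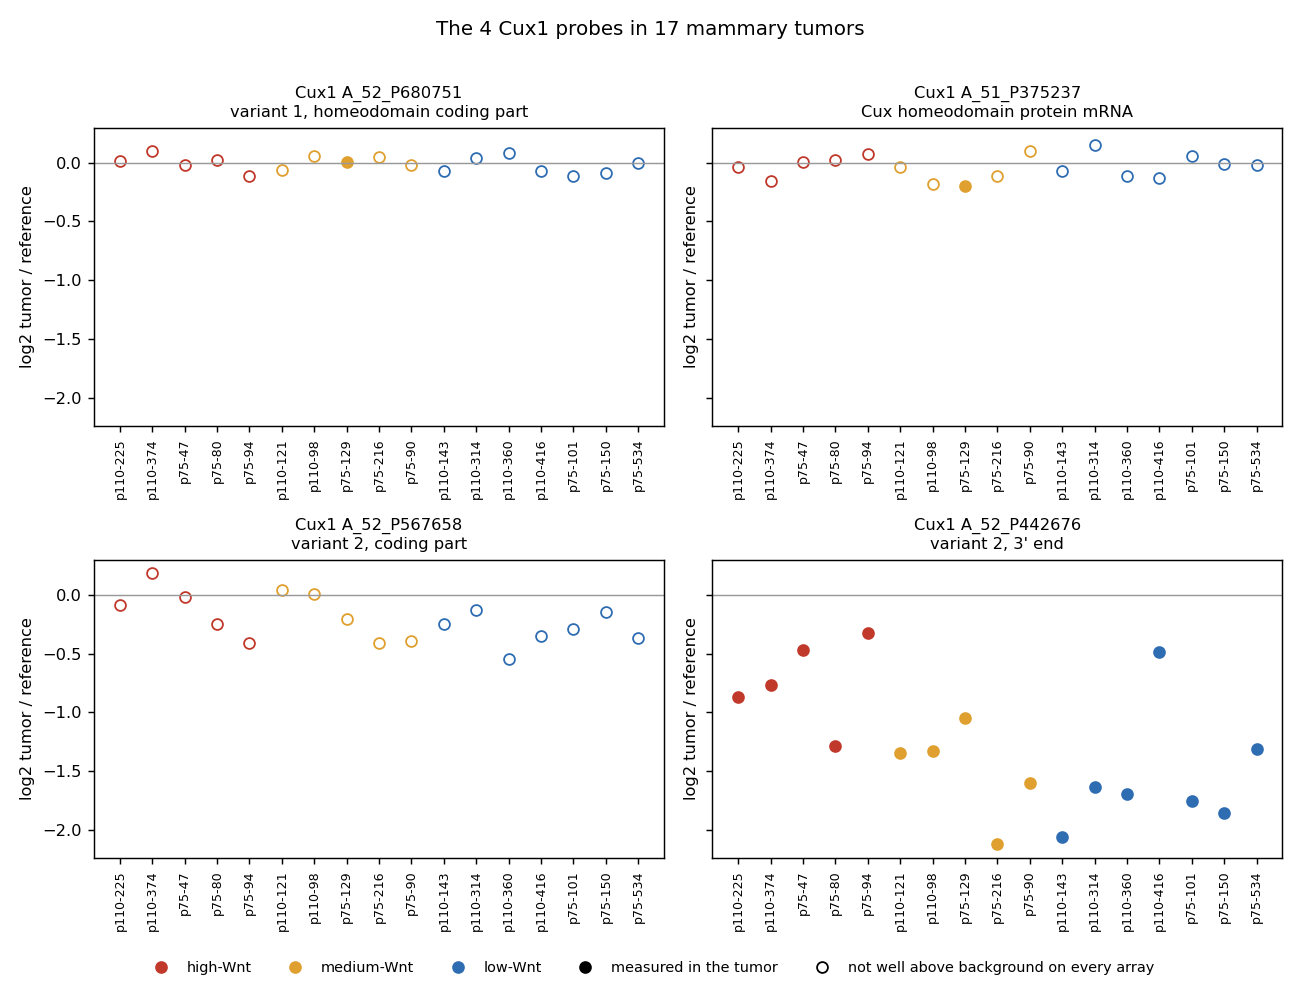
Log2 ratio of tumor over reference (vertical axis) for each Cux1 probe in each of the 17 tumors (horizontal axis), colored by Wnt cluster. Filled circles are tumors in which the probe was measured. The probe A_52_P442676 is filled in all 17 and runs from −2.12 to −0.33, while A_52_P680751 and A_51_P375237 stay between −0.20 and 0.15 and are filled in p75-129 alone, and A_52_P567658, filled nowhere, runs from −0.55 to 0.18.

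Across transgenes, Cux1 A_52_P442676 had nearly the same mean. The p75 tumors had a lowest, median and highest log2 ratio of −2.12, −1.31 and −0.33, and the p110 tumors of −2.06, −1.34 and −0.48, so the groups overlapped almost over their whole range. The difference, p75 minus p110, was −0.04 (SE 0.27, 95% interval −0.60 to 0.53, adjusted p = 0.972 by limma, two-sided exact permutation p = 0.900). This interval holds changes of 0.5 in either direction. The 2 groups overlapped for each of the 12 probes, and were apart for 0.216% of all probes. In this comparison 0 of the 12 Cut-family probes passed the limma test at an adjusted p under 0.05, where 0.425% of all probes passed, and 2 of 12 had an unadjusted p under 0.05, against 13.3% of all probes. Median centering in place of loess put Cux1 at 1.19 (adjusted p = 0.134), a change of sign without a call.

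By histology, the adenosquamous carcinomas, which are all p75, had Cux1 A_52_P442676 ratios of −0.33 (p75-94), −0.47 (p75-47), −1.29 (p75-80) and −1.75 (p75-101). The p75 solid carcinomas had −1.04 (p75-129), −1.31 (p75-534) and −1.85 (p75-150). The groups overlapped: both p75-94 and p75-47 were above all 3 solid carcinomas, and p75-80 and p75-101 lay among them. The difference was 0.44 (SE 0.41, 95% interval −0.43 to 1.32, limma adjusted p = 0.9999, exact permutation p = 0.371). It was 0.22 without p75-150, 0.23 without p75-94, 0.28 without p75-47, 0.71 without p75-101 and 0.13 with median centering. Of the 12 probes 0 passed, with 0% of all probes called by limma and 3.14% at an unadjusted p under 0.05 (0 of the 12). The p110 solid carcinomas had a lowest, median and highest ratio of −2.06, −1.49 and −0.48, and the adenomyoepitheliomas had −0.77 (p110-374) and −1.60 (p75-90).

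Between Wnt clusters, Cux1 A_52_P442676 had its highest mean in the high-Wnt tumors, but the difference did not pass over all probes. The high-Wnt tumors had −0.33 (p75-94), −0.47 (p75-47), −0.77 (p110-374), −0.87 (p110-225) and −1.29 (p75-80), with a mean of −0.75 ± 0.37 (SD, n = 5). The low-Wnt tumors had a lowest, median and highest ratio of −2.06, −1.70 and −0.48, with a mean of −1.54 ± 0.52 (SD, n = 7). Of the 7 low-Wnt tumors only p110-416 (−0.48) lay above p75-80, the lowest high-Wnt tumor, so the groups overlap through that tumor. The medium-Wnt tumors, at −1.49 ± 0.41 (SD, n = 5), lay near the low-Wnt tumors, a pair that was not tested. High minus low was 0.80 (SE 0.25, 95% interval 0.26 to 1.34), with an unadjusted p of 0.00670 and an adjusted p of 0.220 by limma, and an exact permutation p of 0.0202 for this single value.

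The direction of that difference was found within each transgene. It was 0.94 (SE 0.38, limma adjusted p = 0.714) among p75 tumors and 0.65 (SE 0.41, adjusted p = 0.435) among p110 tumors, where the 2 high-Wnt tumors are p110-225 and p110-374, of weak tumor color. Without the 3 weakest tumors it was 0.84 (adjusted p = 0.511), and with single tumors left out it stayed between 0.69 and 0.97 (adjusted p from 0.0824 to 0.388). The tumor in Cy5 alone gave 0.85, in Cy3 alone 0.74 and the tumor color alone 0.75. Median centering in place of loess gave −0.10 (adjusted p = 0.978), so the direction changed with the normalization. Of the 12 Cut-family probes 0 passed by limma in this comparison, against 0.0947% of all probes, and 3 of 12 had an unadjusted p under 0.05, against 11.5% of all probes. None of the 12 had groups that were apart, as 1.48% of all probes had. One of those 3, Onecut2 A_52_P1067724, was measured in no tumor.

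**Figure D3:**
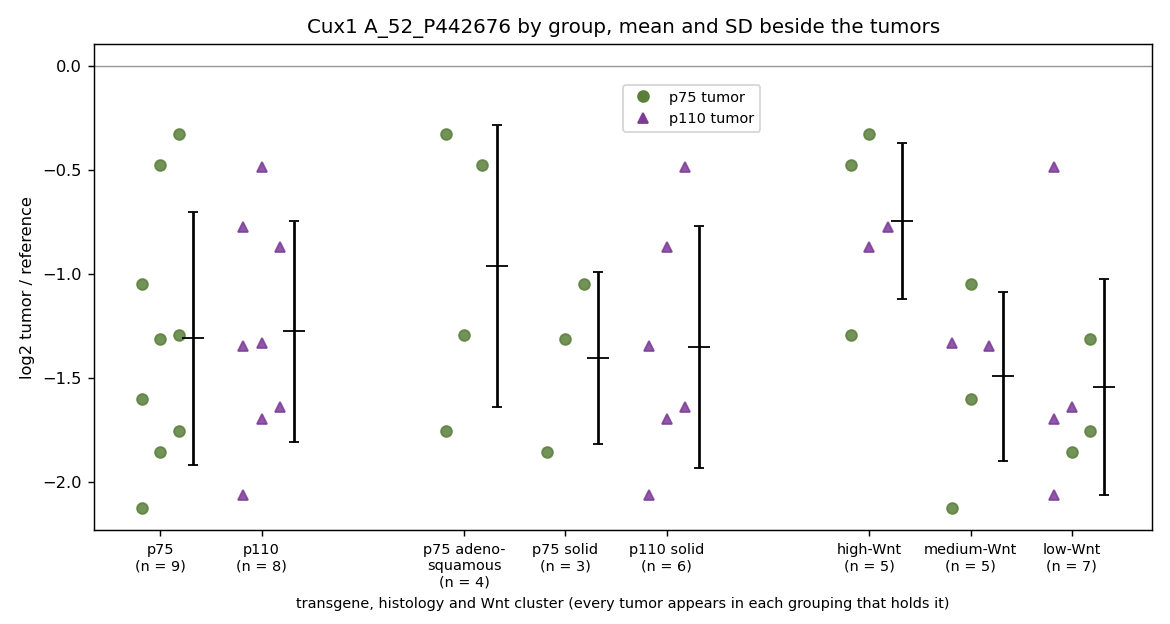
Log2 ratio of tumor over reference for Cux1 A_52_P442676 (vertical axis) in the tumors of each transgene, histology and Wnt cluster (horizontal axis), with circles for p75 and triangles for p110 tumors and the mean and SD beside them. The high-Wnt tumors average −0.75 and the low-Wnt tumors −1.54, and p110-416 is the low-Wnt tumor at −0.48.

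The ratio of this Cux1 probe was also set against a Wnt rank sum, the sum over 19 Wnt genes of a tumor's rank among the 17 tumors. The rank sum ran from 95 in p110-416 to 243 in p75-94. Over 17 tumors Pearson's r was 0.41 (permutation p = 0.0983, adjusted 0.148) and Spearman's rho 0.60 (permutation p = 0.0128, adjusted 0.0366), adjusted over 6 values. Within p75 (n = 9), Pearson's r came to 0.76 (permutation p = 0.0183, adjusted 0.0366) and rho to 0.85 (permutation p = 0.00621, adjusted 0.0366). Within p110 (n = 8), r came to 0.04 (permutation p = 0.926, adjusted 0.926) and rho to 0.19 (permutation p = 0.665, adjusted 0.797), and the difference between the transgenes was not tested. All permutation tests within a transgene were exact.

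The values changed when tumors were left out. Without p110-416 and p75-101, the tumors farthest from the median rank sum, r over the other tumors was 0.73; without p75-101 and p75-94 it was 0.68 within p75, and without p110-416 and p110-314 it was 0.75 within p110. With median centering in place of loess r over 17 tumors was 0.16 (permutation p = 0.545) and rho −0.02, and with the 3 weakest tumors left out r was 0.35 (permutation p = 0.218) and rho 0.53 (permutation p = 0.0516). Without p110-121 as well, r was 0.35 (permutation p = 0.237) and rho 0.50 (permutation p = 0.0868), and from the tumor color alone r was 0.30 (permutation p = 0.233) and rho 0.34 (permutation p = 0.184). Both measures come from the same arrays and share their normalization.

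**Figure D4:**
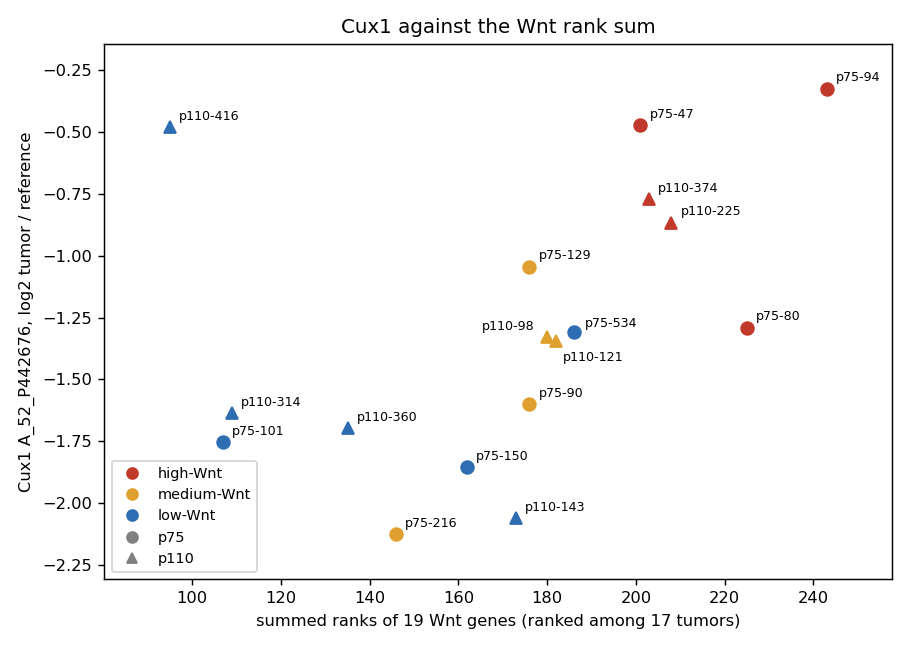
Log2 ratio of Cux1 A_52_P442676 (vertical axis) against the summed ranks of 19 Wnt genes (horizontal axis), 1 point a tumor, colored by Wnt cluster, with circles for p75 and triangles for p110. The tumor p110-416 stands at the lowest rank sum (95) with a ratio of −0.48, away from the other tumors.

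The genes whose ratios were most like those of Cux1 A_52_P442676, by the lower of the r within p75 and the r within p110 tumors, were Map7d1 (0.85 over 9 p75 tumors and 0.82 over 8 p110 tumors), which encodes a microtubule-associated protein, Sox21 (0.81 and 0.84), a SOX transcription factor, and Atp1b2 (0.81 and 0.80), a sodium pump beta subunit. They were the highest of 10599 probes with a symbol that were measured in at least 12 tumors, chosen for this likeness, and all points share arrays and reference with Cux1. Their high minus low cluster differences were 0.36 for Map7d1, 0.76 for Sox21 and 0.43 for Atp1b2, with limma adjusted p-values of 0.765, 0.259 and 0.566.

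Cux2 A_51_P180463 (chr5:121094700-121094759) was dark in the tumor color on each of the 38 arrays, and its reference was measured in no tumor. Its ratios lay between −0.18 and 0.20, which set background against background. The lack of signal gives no level for Cux2 in these tumors or in the reference.

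Onecut1, a liver and pancreas transcription factor, gave signal in few tumors. A_51_P428977 (chr9:74891140-74891199) was measured only in p75-129, with a log2 ratio of 1.72 (0.94 with the tumor in Cy3 and 2.49 in Cy5), and the other 16 tumors ranged from −0.07 to 0.45. The second probe, A_51_P368894 (chr9:74927941-74928000), was measured in p75-129 (−0.03) and p110-314 (−0.74). The probes thus differed in p75-129, the tumor with the largest share of probes measured and the only one in which both were measured. Neither was measured in 3 tumors of any group compared, so no difference between groups was read.

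Onecut2, its relative, was read by 2 probes for the RefSeq transcript, A_51_P345274 and A_52_P213916, with r = 0.93 and rho = 0.89 between their ratios over the 17 tumors, measured or not. The reference was well above background for both on 38 arrays, but where the tumor color was not, the ratio gives no measured level for the tumor. A_51_P345274 was measured in p110-143 (0.21), p75-129 (−0.89), p75-94 (−1.56), p75-534 (−1.57) and p75-150 (−1.73). A_52_P213916 was measured in p110-143 (0.29), p75-150 (−1.70), p75-534 (−1.82), p75-129 (−1.97) and p110-314 (−2.44). The solid carcinoma p110-143 was thus the only tumor with Onecut2 above the reference in the mean of its arrays, by both probes. It had 4 arrays on 2 scan days, and the sign followed the dye. With the tumor in Cy3, A_52_P213916 gave 0.68 on the first day and 0.69 on the other, and in Cy5 −0.11 and −0.08. A_51_P345274 gave 0.67 and 0.50 in Cy3, and −0.23 and −0.11 in Cy5.

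Between transgenes, Onecut2 A_52_P213916 had a lowest, median and highest ratio of −2.93, −2.38 and −1.70 in p75 tumors and of −2.81, −1.01 and 0.29 in p110 tumors. The difference was −0.88 (SE 0.38, limma adjusted p = 0.329), and that of A_51_P345274 was −0.55 (SE 0.40, adjusted p = 0.592), both over measured and unmeasured tumors together. With median centering in place of loess the difference of A_52_P213916 was −0.028 (adjusted p = 0.954), with the processed signals of the scanner software −0.37 (adjusted p = 0.85) and from the tumor color alone −0.36 (adjusted p = 0.595). The log2 reference signal of this probe was itself 8.86 to 10.05 beside the p75 tumors and 9.03 to 9.41 beside the p110 tumors, with 7 of 9 p75 values above every p110 value, and its part in the difference was not tested. Of the p110 tumors only p110-143 and p110-314 were measured by A_52_P213916, and the p110 tumors p110-98, p110-225 and p110-374, whose tumor color was weak, stood at −0.86, −0.91 and −0.88. Without these 3 tumors the difference was −0.55 (limma adjusted p = 0.741), without p110-121 as well −0.39 (adjusted p = 0.845), and among solid carcinomas alone −0.21 (adjusted p = 0.966). The share of probes measured moved with this result, and its part in it was not tested.

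By histology, Onecut2 A_52_P213916 was −2.80, −2.70, −2.50 and −2.38 in the adenosquamous carcinomas, measured in 0 of 4, and −1.97, −1.82 and −1.70 in the p75 solid carcinomas, measured in 3 of 3. The 2 groups did not overlap for 2 of the 12 Cut-family probes, this one and Cux1 A_51_P375237, which was measured in p75-129 alone, and for 5.02% of all probes. The fitted difference was −0.76 (SE 0.60, limma adjusted p = 0.9999). Since the probe was read for being measured in the solid carcinomas, and was measured in no adenosquamous carcinoma, these values are a description and no test of the difference. A_51_P345274 overlapped between the groups and differed by −0.58 (SE 0.62, limma adjusted p = 0.9999), and by −0.32 without p75-129. It was measured in 1 of 4 adenosquamous and 3 of 3 solid carcinomas, and was read through the solid carcinomas, where it was higher. Its difference is thus also a description. With the processed signals of the scanner software the histology differences were −2.15 for A_51_P345274 and −1.98 for A_52_P213916, and neither passed. Against all 9 solid carcinomas of both transgenes the difference of A_52_P213916 was −0.91 (limma adjusted p = 0.897). Between Wnt clusters the differences were 0.57 (SE 0.49) for A_51_P345274 and 0.13 (SE 0.55) for A_52_P213916, with limma adjusted p-values of 0.690 and 0.951. A_51_P345274 was measured in 1 of 5 high-Wnt and 3 of 7 low-Wnt tumors, and A_52_P213916 in 0 of 5 and 4 of 7. Most of the ratios compared thus give no measured tumor level, and the differences are a description. The values moved with the tumors used. A_51_P345274 gave 0.08 within p75 and 1.33 within p110 tumors (limma adjusted p = 0.9999 and 0.314), 0.36 without p110-374 and 0.92 without p110-143, and A_52_P213916 gave −0.42 within p75 and 1.02 within p110 tumors.

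Satb1 was read by 2 probes that lie 67327 bases apart on the minus strand of chromosome 17 with r = 0.11 and rho = −0.00 over 17 tumors, most of them not measured by one or both. They are shown because the tumors that were high differed between them.
A_51_P324228 (Satb1 mRNA, chr17:49889761-49889820): caccggtatttcctaacaacatgagaagtc
A_52_P110489 (neonate thymus cDNA, chr17:49957088-49957147): aagagctagagtgtggtcatctcactcctc
The downstream probe, A_51_P324228, was measured in p110-416 (3.14), p75-150 (1.61), p75-101 (1.54), p110-360 (1.47), p75-47 (0.64) and p75-129 (0.05). Its reference was measured only in p75-129, so the other ratios depend on the background of the reference. The upstream probe, A_52_P110489, was measured in p110-143 (4.33), p110-121 (4.27) and p110-416 (1.98). The reference was not well above background for the upstream probe on any of the 38 arrays, so the same holds for its ratios. The floor taken for the reference was, array by array, the lowest reference signal that counted as well above background or the probe's own reference signal, whichever was higher. Over that floor the upstream probe was at least 18.8-fold higher in p110-143, 18.1-fold in p110-121 and 3.94-fold in p110-416, on single tumors with no replicate. In p110-416 the floor was the probe's own reference signal.

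In p110-121 and p110-143 the downstream probe stood at −0.05 and 0.55 and was not measured. The arrays of each tumor gave the same picture for the upstream probe: 3.41 and 5.13 in p110-121, and 3.77, 4.85, 4.35 and 4.33 in p110-143, the last 2 on another scan day than the first 2. Of 6 T-cell markers 2 were measured in p110-121, 4 in p110-143 and 3 in p110-416, and their median log2 ratios there were 0.04, 0.07 and −0.37, beside −0.31 to 0.12 in the other tumors. The 4 measured in p110-143 were Cd8a (2.56), Cd3g (0.46), Lck (−0.55) and Ptprc (−1.39), and Cd3g and Lck had their highest ratios of the 17 tumors there. Those measured in p110-121 were Ptprc (0.79) and Cd3e (0.35), and those in p110-416 were Cd3e (0.14), Lck (−2.32) and Ptprc (−4.06). Cd3e was not measured in p110-143, where it stood at 0.05. The markers' part in the result was not tested.

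Between transgenes the upstream Satb1 probe was dark on every p75 array and well above background on 10 p110 arrays. The p110 tumors had a lowest, median and highest ratio of 0.01, 0.44 and 4.33, and the p75 tumors of −0.05, 0.03 and 0.22. The groups overlapped, since p110-98, p110-225, p110-314 and p110-374 were at 0.13 or below. The fitted difference was −1.41 (SE 0.60, limma adjusted p = 0.311). It sets 3 measured p110 tumors against background, and the probe was read for those 3, so it is a description. Against the lowest signal well above background on each p75 array, or the probe's own signal where higher, the mean p110 signal was at least 2.02-fold higher, and at least 1.47-fold without p110-121 and 1.59-fold without p110-143. Without p110-121 the difference was −1.01 (limma adjusted p = 0.443), without the 3 weakest tumors −2.24 (adjusted p = 0.169), and without all 4 of them −1.75 (adjusted p = 0.184). The scanner software's processed signals gave −2.96 (adjusted p = 0.292). The downstream probe differed by −0.08 (SE 0.42, adjusted p = 0.955).

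Between Wnt clusters the downstream Satb1 probe had a lower mean in the high-Wnt tumors (0.27) than in the low-Wnt tumors (1.32). The difference did not pass over all probes. The high-Wnt tumors had 0.02 (p110-225), 0.20 (p75-80), 0.21 (p75-94), 0.29 (p110-374) and 0.64 (p75-47), and the low-Wnt tumors had a lowest, median and highest ratio of 0.09, 1.47 and 3.14. The groups overlap through p110-314 (0.09) and p110-143 (0.55), and the probe was measured in 1 of 5 high-Wnt and 4 of 7 low-Wnt tumors. The lowest mean was that of the medium-Wnt tumors, at −0.04 ± 0.21 (SD, n = 5, measured in 1). The ratio thus did not fall step by step with the Wnt cluster, and the medium-Wnt tumors were not tested against the others. High minus low was −1.05 (SE 0.37, limma adjusted p = 0.274), and −0.97 without the 3 weakest tumors (adjusted p = 0.663). The probe was read for its 4 measured low-Wnt tumors, the group where it was higher, so this difference is a description. It was −0.98 within p75 and −1.16 within p110 tumors (limma adjusted p = 0.885 and 0.334), −0.97 with median centering (adjusted p = 0.703) and −2.54 with the processed signals of the scanner software (adjusted p = 0.319).

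Of the 6 T-cell markers, Cd8a had a high minus low difference of −1.66 (limma adjusted p = 0.346), Ptprc of −0.49, Cd4 of −0.05, Cd3e of 0.08, Cd3g of 0.17 and Lck of 0.28, and none passed. In the 6 tumors where this Satb1 probe was measured, Cd8a stood at 3.64 (p75-101), 3.31 (p75-150), 2.80 (p110-360), 0.70 (p75-129), 0.03 (p75-47) and −0.06 (p110-416, where Satb1 was highest). In the other 11 it ranged from −0.11 to 2.56, with p110-143, p75-216, p110-225 and p75-90 above 2. The 4 endothelial markers in the same comparison were at −1.33 (Kdr), −0.97 (Cdh5), −0.15 (Tek) and 0.04 (Pecam1). The 6 epithelial markers went both ways, with the keratins Krt5, Krt14, Krt18 and Krt8 at 3.26, 1.95, 0.51 and 0.14 and the adhesion genes Epcam and Cdh1 at −0.93 each, and none of these 10 passed. Over the 6 T-cell markers the median ratio ranged from −0.21 to 0.12 in high-Wnt and from −0.37 to 0.07 in low-Wnt tumors, with 1 to 5 of 6 measured in high-Wnt and 3 to 6 of 6 in low-Wnt tumors. The part of these genes in the Satb1 difference, or in that of Cux1 A_52_P442676 between the same clusters, was not tested. In bulk RNA of dissected cells, more cells of a type and more RNA per cell cannot be told apart.

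**Figure D5:**
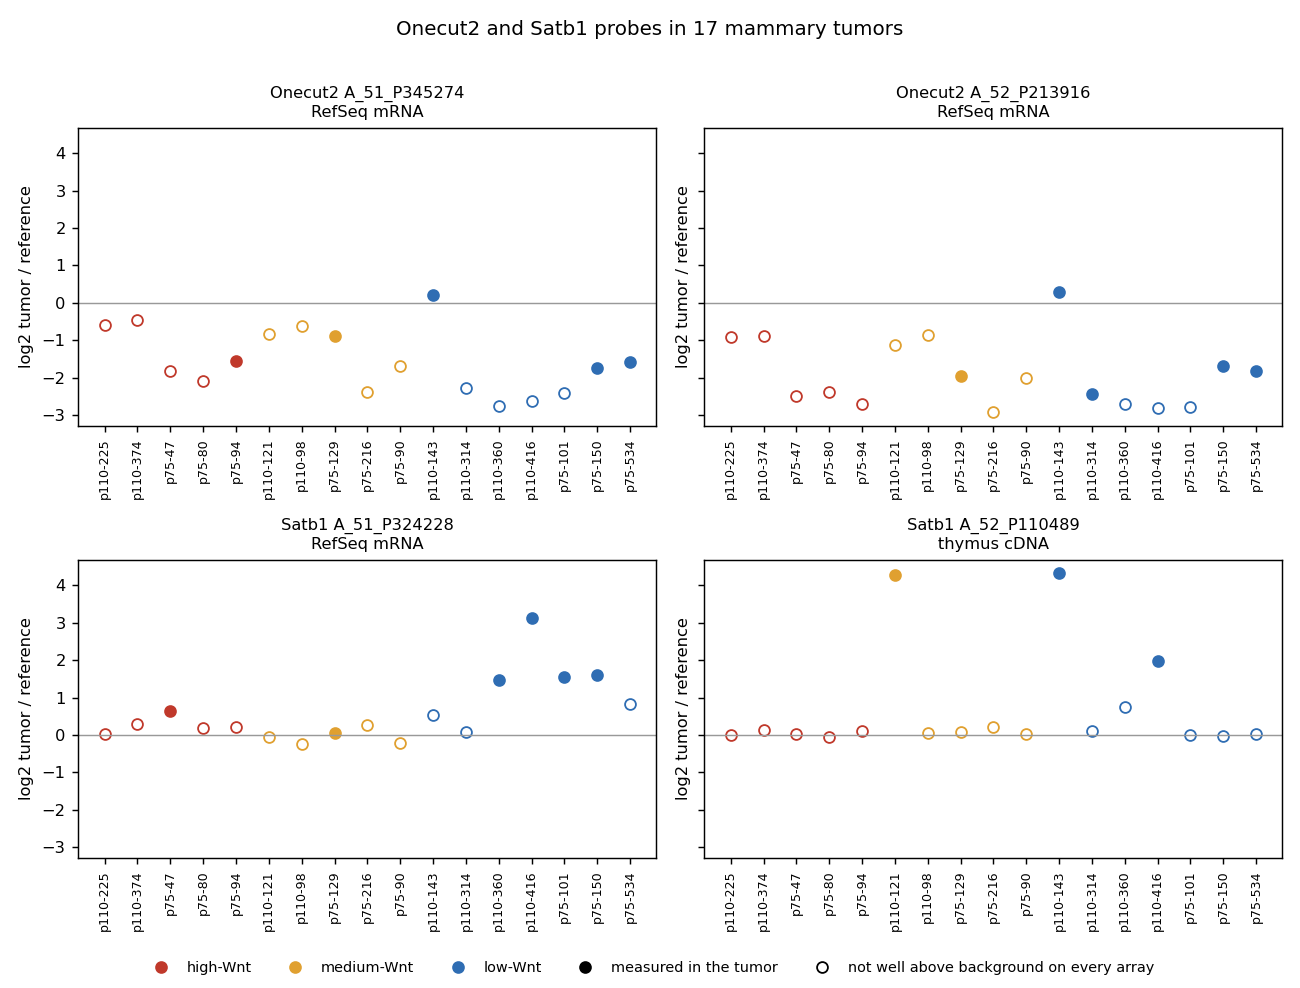
Log2 ratio of tumor over reference (vertical axis) for 2 Onecut2 and 2 Satb1 probes in each tumor (horizontal axis), colored by Wnt cluster and filled where measured. Onecut2 rises above 0 only in p110-143 (0.21 and 0.29), and the Satb1 probes are highest in different tumors, p110-416 (3.14) for A_51_P324228 and p110-143 (4.33) for A_52_P110489.

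Onecut3, a further Onecut factor, gave little signal. Its probe A_51_P331638 was measured in p75-94 and p75-129, with log2 ratios of 0.04 and −0.11, and its other probe, A_52_P474152, was measured in no tumor.

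Genes that act on CUX1 were read beside it from a list of 10, each by its brightest probe: the protease Ctsl that cleaves CUX1, the kinases, cyclins and phosphatase Cdk1, Cdk2, Ccna2, Ccnb1 and Cdc25a, the modifiers Kat2b, Csnk2a1 and Prkca, and the deacetylase Hdac1. None of the 10 passed the limma test in any of the 3 comparisons, and 2, 0 and 2 had an unadjusted p under 0.05 between transgenes, histologies and clusters, beside 13.3%, 3.14% and 11.5% of all probes. Ctsl was measured in 17 tumors, at −1.82 to −5.40, and its high minus low difference was −1.78 (adjusted p = 0.137). Prkca had the lowest p of the list in that comparison (adjusted p = 0.0736) and was higher in the high-Wnt tumors, but it was measured in 2 tumors, so its difference was not read. The list's median high minus low difference was 0.09, beside 0.01 over all probes, and 0.08 for the 12 Cut-family probes. The median over all probes takes in many that were measured in no tumor, so these medians are not like for like.

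A list of 17 genes that have been named as CUX1 targets was read in the same way, and 16 of them matched a probe. Of these, 0 passed by limma between transgenes (3 at an unadjusted p under 0.05) and 0 between histologies (1 at an unadjusted p under 0.05). These shares lie beside 13.3% and 3.14% of all probes. Between clusters 2 passed and 4 had an unadjusted p under 0.05, where 11.5% of all probes had one. The 2 were Wnt6 and Wnt10a, and they are no result, since the 6 Wnt genes of the list helped to define the clusters. Among the others the cell cycle inhibitor Cdkn1a, measured in 17 tumors, was at 1.77 high minus low (limma adjusted p = 0.188) and the epithelial-mesenchymal transition factor Snai1 at 0.86 (adjusted p = 0.305), while the checkpoint and repair genes Mad2l1, Bub1, Brca1, Chek1, Bub1b and Atm had differences of 0.74, 0.45, 0.40, 0.39, 0.26 and −0.11, with adjusted p-values from 0.502 to 0.822. The adhesion gene Cdh1 was at −0.93 (adjusted p = 0.637) and the DNA polymerase gene Pola1 at 0.14 (adjusted p = 0.929). Over the 10 genes that are not Wnt genes, 0 passed by limma, 2 had an unadjusted p under 0.05 and the median difference between clusters was 0.39, beside 0.01 over all probes. These medians are not like for like. All probes include the 28.0% measured in no tumor, and loess centers their ratios, while each list gene is read by its brightest probe. No shift of the list is read from them.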

How the data were processed

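RNA of microdissected tumor cells and of the reference was amplified in 2 rounds, labeled with Cy3 and Cy5 and hybridized in dye swaps by the authors, giving 38 arrays on 15 slides. The deposited scanner files hold spot intensity and background values that the authors did not normalize. The deposited series table holds log2 ratios of tumor over reference, which per the labels were made with limma; the same values, to within 4.98e-08, came from limma's normexp correction (offset 50), loess on each array and the mean of the swapped arrays. These ratios were averaged per probe over spots, controls left out, and fitted with limma 3.58.1 in R 4.3.3 over 41174 probes with Benjamini-Hochberg adjustment: transgene over 17 tumors, p75 adenosquamous against p75 solid carcinomas in a fit of transgene by histology, and high-Wnt against low-Wnt in a fit of 3 clusters, taken from the study's drawing. The fit was tested on simulated data. Figures were drawn with matplotlib 3.10.9.

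A difference was read only for a probe measured in at least 3 tumors of 1 of the groups compared, which left 12 differences over the Cut-family probes. Exact permutation p-values of single values are two-sided and unadjusted. They are given for Cux1 A_52_P442676, measured in all tumors, and not where a probe was read through the group in which it was measured. Each tumor is 1 mouse, and the number of arrays limits the precision. Gene names were those of the files or, by accession, those of RefSeq (22951 probes matched), and coordinates are those of the files. The probes named are all those of the members and of Onecut3, the 3 genes most like Cux1 and list genes that passed; other list genes and markers given with values were named after their values were seen, and 1 gene of the lists is not reported here. Members and lists were chosen with earlier results of these data known. Alternatives covered background correction, normalization, single colors, a filter on dim probes, variance estimation, scan day and slide as random blocks, subsets of tumors and each tumor left out; leaving out the 3 weakest tumors and p110-121 together was chosen after seeing the data. Marker genes of epithelium, T cells, other immune cells, fibroblasts, endothelium, adipocytes and neurons were also read; none passed in any comparison.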

Additional observations from a re-analysis of the deposited data

Results flagged for a closer look

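A tumor stood far from the others of its group, by the gap to its neighbour against the group's range, in 12 of 96 groups of 4 to 10 tumors looked at over the 12 Cut-family probes. The cut-off is one that flags about 1 in 20 groups of normally distributed values. Ratios that mix background with single bright tumors need not be distributed so, and groups share tumors. No flagged share over all probes is given, so the count is not read as an excess for the Cut-family probes. In 6 of the 12 the probe was measured in that tumor. Onecut1 A_51_P428977 stood at 1.72 in p75-129 among p75, solid and medium-Wnt tumors. Satb1 A_52_P110489 stood at 4.27 in p110-121 among medium-Wnt tumors, whose next highest was 0.222. Onecut2 stood at 0.208 (A_51_P345274) and 0.295 (A_52_P213916) in p110-143 among low-Wnt tumors, whose next highest were −1.57 and −1.70. In the other 6 the probe was not measured in the tumor that stood apart: Cux1 A_51_P375237 at 0.154 in p110-314 (among p110 and p110 solid tumors), Onecut2 A_52_P1067724 at 0.181 in p110-225 (among p110 and solid tumors), Onecut1 A_51_P428977 at 0.260 in p75-94 (among high-Wnt tumors) and Onecut1 A_51_P368894 at 0.414 in p110-121 (among medium-Wnt tumors). No cluster difference of a Cut-family probe differed between p75 and p110 tumors in a limma test of the interaction.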

How the results depend on the processing

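The alternatives were run for the 12 differences that were read (5 probes between transgenes, 3 between histologies and 4 between clusters), and none of these passed the threshold under any that gave a value. The filter to probes measured in at least 5 tumors left none for Satb1 A_52_P110489. The lowest adjusted p-values among alternatives were 0.0824 for Cux1 between clusters with 1 tumor left out and 0.0961 for Satb1 A_52_P110489 between transgenes with median centering. In place of the 175 probes called between transgenes, no background correction gave 270, Feature Extraction signals 296, median centering 1302, arrays scaled to the same spread 86, the tumor color alone 3360, Cy3 alone 75, solid carcinomas only 0 and the set without p110-121 and the 3 weakest tumors 640; tumors left out in turn gave 62 to 1219, the highest without p110-314. In place of 0 between histologies, Feature Extraction signals gave 2, Cy5 alone 1 and left-out tumors 0 to 12, the highest without p75-101. In place of 39 between clusters, no background correction, median centering and scaling gave 0 each, Feature Extraction signals 3, Cy5 alone 10, Cy3 alone 11, trend and robust estimation 8, transgene as a block 105, only high-Wnt and low-Wnt tumors 125 and p110 tumors alone 2419, with 6 to 48 on leaving out tumors.

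These differences changed sign. Between transgenes Cux1 A_52_P442676 was 1.192 with median centering, 0.3866 with scaling, 0.1354 without the 3 weakest tumors and 0.16 without p110-121 as well, and −0.1578 to 0.07779 with tumors left out. Onecut2 A_51_P345274 was 0.1203 with Feature Extraction signals, 0.3443 with median centering, 0.08547 in solid carcinomas and 0.06645 without p110-121 and the weakest tumors. Satb1 A_51_P324228 was 0.537 with Feature Extraction signals, 0.03904 in Cy3 alone and −0.2141 to 0.2695 with tumors left out. Between clusters, median centering gave −0.09814 for Cux1, −0.02949 for Onecut2 A_51_P345274 and −0.4811 for Onecut2 A_52_P213916. That last probe was −0.7441 with Feature Extraction signals, −0.003678 in Cy3 alone, −0.4194 within p75, −0.5269 without the weakest tumors, with or without p110-121, and −0.1218 to 0.5082 with tumors left out. The cause was not tested. Leaving out the weakest tumors and p110-121 was chosen after seeing the data, as were median centering and the tumor color alone for the rank sum. No paired analysis was possible because no mouse number is shared by a p75 and a p110 tumor. Signal over background is a limit: 11 of 12 probes were not measured in every tumor.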
